A study of Mus musculus with 18 samples.

Results

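Smc1a and Smc3 encode the paired SMC ATPases at the core of cohesin, the protein ring that holds sister chromatids together and shapes chromatin loops. Both genes were followed here through every probe that could be named for them. These were 2 probes for Smc1a and 3 for Smc3 among 46657 probes in all, of which 10778 could be named. The probes were found by the mouse gene numbers of Smc1a and Smc3 written inside the probe identifiers. These 2 genes stand among 8679 that could be named by such numbers or by clone names in the identifiers. Whether any probe without a name also reads Smc1a or Smc3 was not tested. Smc1a lies at chrX:152016428-152061973 and Smc3 at chr19:53600396-53645831 in the mouse build GRCm38.p6. The probe sequences were not used here, so it is not known which exon or UTR each probe reads.

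Cohesin is a ring of an SMC1 protein, an SMC3 protein, a kleisin that closes the ring, and a STAG protein bound to the kleisin. In mammalian meiosis Smc1b, Rec8, Rad21l and Stag3 take the places of or work beside Smc1a, Rad21, Stag1 and Stag2, whereas Smc3 serves in every form of the ring. The meiotic axis of spermatocytes is built on these rings. Smc1a is carried on the X chromosome, which is transcriptionally silenced in the sex body of pachytene spermatocytes, and Smc3 is autosomal.

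The study measured total RNA from male germ cells, enriched from the testes of juvenile mice, on Illumina MouseWG-6 v1.1 bead arrays, 1 array for each of 18 RNA samples. Ts65Dn mice carry an extra marker chromosome with distal mouse chromosome 16 and a proximal piece of chromosome 17. Ts1Cje mice carry an additional copy of a shorter part of distal chromosome 16 on a translocation chromosome, and WT were diploid littermates. The labels do not say from which of the trisomic lines the WT littermates came, and the same WT arrays served both comparisons. Neither Smc1a nor Smc3 lies on a chromosome with the trisomic segments. Days of age are given as days post partum (dpp): a younger set of each genotype was taken at 16-17 dpp and an older set at 19-20 dpp, giving 6 groups of 3 biological replicates. Between these ages the leading germ cells of a juvenile testis pass from pachytene towards the round spermatid stage. In such bulk samples, fewer cells that express a gene and less RNA of it per cell cannot be told apart.

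The arrays detected between 17102 and 19784 probes each, at median signals of 179.4 to 225.2. Markers of late germ cells were higher at the later age: both tested pachytene to diplotene genes (Aurkc and Zpbp, of 10 listed) rose in all 3 genotypes, and of 8 tested round spermatid genes of 13 listed 6 rose in WT, 7 in Ts1Cje and 4 in Ts65Dn, where 18.5%, 18% and 6.17% of all tested probes were called higher. Of 10 Sertoli markers 2 were tested, and Wt1 and Gata4 were detected on at least 2 of the 3 arrays of every group of these enriched germ cells. The replicate arrays of the Ts1Cje 19-20 dpp group stood farthest apart for Smc1a. The file headers number the arrays in 3 consecutive runs of 6, each with 1 array of every group, and the labels do not say what a run stands for. Differences within these runs are given beside the main ones.

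The regions around the RefSeq start sites of Smc1a and Smc3 (build GRCm38.p6) are shown because the level of both genes went down together with age. Each window runs 5′ to 3′ on the plus strand from 250 bases before the start site to 50 after it. Capitals mark matches to 6 motifs searched on both strands, namely CCAAT (the CCAAT box), GGGCGG (the GC box), TTTCCCGC (an E2F motif), CCGGAAGT (an ETS motif), TGACGTCA (the cyclic AMP response element) and CAAAATGG (a YY1 motif). The Smc1a window is chrX:152016178-152016477 and the Smc3 window chr19:53600146-53600445.
Smc1a: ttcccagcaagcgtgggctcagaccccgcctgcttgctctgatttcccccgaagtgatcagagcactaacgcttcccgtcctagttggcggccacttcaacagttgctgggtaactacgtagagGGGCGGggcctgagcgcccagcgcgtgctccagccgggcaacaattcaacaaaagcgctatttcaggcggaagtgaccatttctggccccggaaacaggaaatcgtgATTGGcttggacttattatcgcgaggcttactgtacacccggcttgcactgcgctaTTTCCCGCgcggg
Smc3: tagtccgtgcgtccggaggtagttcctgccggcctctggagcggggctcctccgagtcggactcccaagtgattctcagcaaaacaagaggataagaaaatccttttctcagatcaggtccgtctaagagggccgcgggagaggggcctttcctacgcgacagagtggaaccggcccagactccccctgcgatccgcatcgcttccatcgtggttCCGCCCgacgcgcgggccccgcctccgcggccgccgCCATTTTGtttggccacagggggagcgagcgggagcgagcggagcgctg
The Smc1a window held CCAAT on the minus strand (ATTGG as printed), GGGCGG on the plus strand and TTTCCCGC on the plus strand behind the start site. The Smc3 window held GGGCGG on the minus strand (CCGCCC as printed) and CAAAATGG on the minus strand (CCATTTTG as printed). No match overlapped another. Of 32851 mouse promoter windows of this length, 35.7% held GGGCGG, the only motif of the 6 found in both genes, and 37.4% held CCAAT. TTTCCCGC was present in 1.07% of the windows and CAAAATGG in 1.37%, whereas CCGGAAGT (3.89% of all windows) and TGACGTCA (1.79%) were found in neither gene. The windows of both genes lay above the median of all windows in G and C content and in the CG dinucleotide. Of the bases, 58.3% were G or C in Smc1a and 65.0% in Smc3, against a median of 52.7%. These contents lay at percentiles 66.3 (Smc1a) and 81.7 (Smc3) of all windows. The CG dinucleotide occurred 23 times in Smc1a and 32 times in Smc3, against a median of 7. A match is a description of these letters and not a measured site.

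A single probe of each gene gave a level well above background. The bright Smc1a probe (probe 1) was detected, at a detection p under 0.05 against the negative controls of the array, on all 18 arrays with signals from 1181 to 7084 and 19 to 31 beads per array. The bright Smc3 probe (probe 1) was also detected on all 18 arrays, with signals from 462 to 1971 and 16 to 42 beads. The median standard error over the beads was 4.62% of the signal for Smc1a and 4.0% for Smc3, and covers reading error on 1 array only.

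The remaining probes were dim. Smc1a probe 2 read 197 to 323 and was detected on 5 arrays, and Smc3 probe 2 read 157 to 294 and was detected on 3 arrays. Smc3 probe 3 read 131 to 181, was detected on no array (detection p 0.271 to 0.800) and entered no test, so 4 of the 5 probes were tested. Over the 18 arrays the normalised level of Smc1a probe 2 followed probe 1 with a Pearson r of 0.64, and Smc3 probe 2 followed its probe 1 with r = 0.82, while Smc3 probe 3 did not follow it (r = 0.09). These correlations describe arrays that share labelling and normalisation. The levels of Smc1a and Smc3 described below are those of probe 1.

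**Figure D1:**
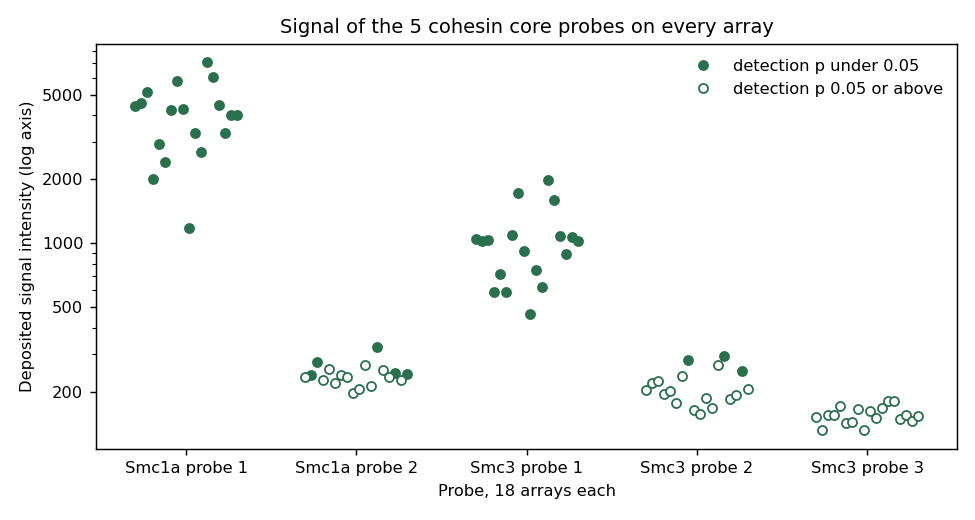
Deposited signal intensity (log axis) of the 5 probes on each of the 18 arrays, filled where the detection p was under 0.05. Smc1a probe 1 (1181 to 7084) and Smc3 probe 1 (462 to 1971) are filled throughout, and the 3 other probes lie at or near background.

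At 16-17 dpp the normalised log2 level of Smc1a in WT was 12.10, 12.32 and 12.49 in replicates 1, 2 and 3. In Ts1Cje of the same age it was 12.11, 12.34 and 12.23. In Ts65Dn it was 12.35, 12.42 and 12.29. These 9 younger arrays overlapped between the genotypes. At 19-20 dpp Smc1a was 10.82, 11.23 and 11.26 in WT. It was 10.14, 11.48 and 11.41 in Ts1Cje and 11.51, 11.89 and 11.84 in Ts65Dn. Every older array lay below every younger array, whatever the genotype, and the 3 older Ts65Dn arrays lay above all older WT and Ts1Cje arrays. Within a genotype, all older arrays lay below all younger ones for 37.0% (WT), 28.8% (Ts1Cje) and 27.9% (Ts65Dn) of the tested probes. All older Ts65Dn arrays lay above all older WT arrays for 25.3% and above all older Ts1Cje arrays for 20.0%. The share over the pooled genotypes was not counted.

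The younger WT arrays gave Smc3 levels of 9.86, 9.91 and 9.97 (log2). The younger Ts1Cje arrays gave 9.87, 10.48 and 9.82, and the younger Ts65Dn arrays 10.43, 10.36 and 10.01. The Ts65Dn arrays lay above the WT arrays at this age, and 1 Ts1Cje array lay higher than all of them. At 19-20 dpp Smc3 was 8.69, 8.96 and 8.89 in WT, and 8.41, 9.02 and 9.05 in Ts1Cje. The older Ts65Dn arrays stood at 9.42, 9.74 and 9.65. As for Smc1a, every older array lay below every younger array, and the older Ts65Dn arrays lay between the younger arrays and the older arrays of the other genotypes. The share of all tested probes with this order was not counted.

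**Figure D2:**
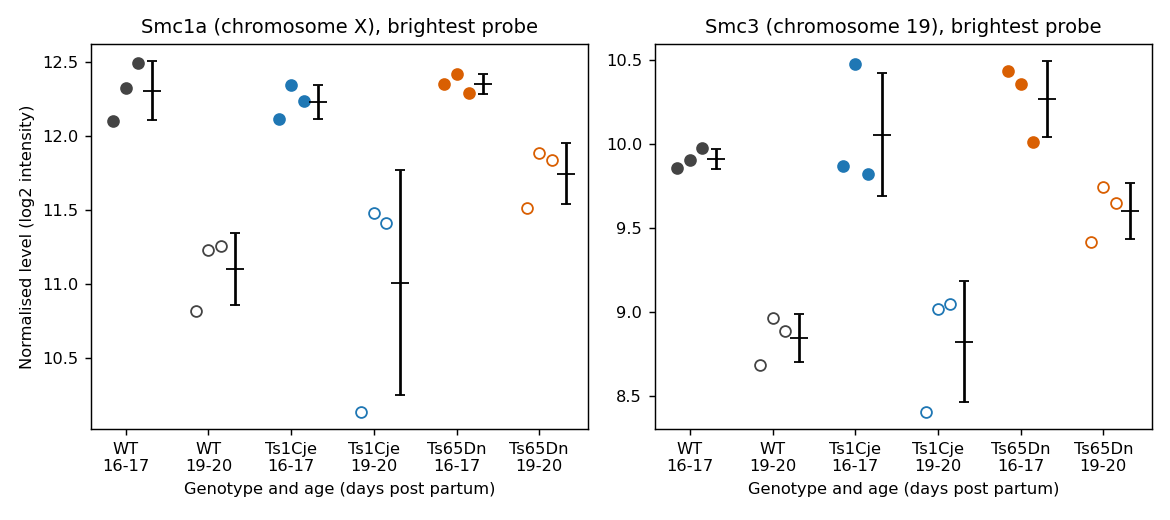
Normalised level (log2 intensity) of the bright Smc1a and Smc3 probes in the 6 groups; points are single arrays, filled at 16-17 dpp and open at 19-20 dpp, with the mean and SD of 3 arrays beside them. The vertical scales differ and do not start at 0; older Ts65Dn arrays (Smc1a 11.75 ± 0.20, Smc3 9.60 ± 0.17) lie above the older WT and Ts1Cje arrays.

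In order of the group means, Smc1a stood at 12.35 ± 0.07 (SD, n = 3) in Ts65Dn, 12.30 ± 0.20 in WT and 12.23 ± 0.11 in Ts1Cje at 16-17 dpp, then at 11.75 ± 0.20 in Ts65Dn, 11.10 ± 0.24 in WT and 11.01 ± 0.76 in Ts1Cje at 19-20 dpp. Smc3 stood at 10.27 ± 0.22 in Ts65Dn, 10.06 ± 0.37 in Ts1Cje and 9.91 ± 0.06 in WT at 16-17 dpp, then at 9.60 ± 0.17 in Ts65Dn, 8.85 ± 0.14 in WT and 8.82 ± 0.36 in Ts1Cje at 19-20 dpp. Both orders fell into 3 steps: the 3 younger groups, whose neighbours overlapped, then the older Ts65Dn group, which overlapped neither neighbour, then the older WT and Ts1Cje groups, which overlapped each other. How many probes of the array show such steps was not counted. On the deposited scale the mean Smc1a signal went from 4697 ± 391 to 2449 ± 450.5 with age in WT and from 5859 ± 1316 to 3768 ± 402 in Ts65Dn. The mean Smc3 signal went from 1037 ± 13.0 to 631 ± 74.7 in WT and from 1549.6 ± 448 to 996 ± 94.5 in Ts65Dn.

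Smc1a and Smc3 both fell between 16-17 and 19-20 dpp in WT, by about the same factor. Smc1a fell 2.30-fold, a log2 change of −1.20 ± 0.27 (SE, n = 3 and 3, limma adjusted p = 0.0041), and Smc3 fell 2.10-fold, a log2 change of −1.07 ± 0.21 (adjusted p = 0.0017). In Ts1Cje the log2 change was −1.22 ± 0.27 for Smc1a (adjusted p = 0.0031) and −1.23 ± 0.21 for Smc3 (adjusted p = 6.4e-04). With only the compared groups fitted, the Smc1a change in Ts1Cje did not pass (adjusted p = 0.066). In Ts65Dn neither change passed the test: −0.61 ± 0.27 for Smc1a (95% interval −1.19 to −0.02, adjusted p = 0.15) and −0.67 ± 0.21 for Smc3 (95% interval −1.11 to −0.22, adjusted p = 0.057). The Smc3 change in Ts65Dn did pass with the header run as a block (adjusted p = 0.038) and with the replicate number as a block. It also passed without background correction, with array weights, with the compared groups fitted alone and in the authors' series table. The Smc1a change in Ts65Dn passed with the weights and with the compared groups alone. The 3 older arrays lay below the 3 younger ones for both genes in Ts65Dn, and within the header runs the older array was lower in 3 of 3 runs for both genes in each genotype. Those within-run differences ranged from −1.50 to −0.87 for Smc1a in WT, from −1.97 to −0.82 in Ts1Cje and from −0.84 to −0.45 in Ts65Dn. For Smc3 they ranged from −1.22 to −0.90 in WT, from −1.46 to −0.77 in Ts1Cje and from −1.02 to −0.37 in Ts65Dn. Without replicate 1 of the Ts1Cje 19-20 dpp group, the lowest array, the age change of Smc1a in Ts1Cje was −0.78 (adjusted p = 0.0059).

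Falls of this kind were common on the arrays. Of 21337 tested probes, 28.2% were called lower with age in WT, 27.4% in Ts1Cje and 2.54% in Ts65Dn. Called in either direction were 46.7%, 45.3% and 8.71%. Of the calls in WT 60.3% were lower, and 46.5% were lower when each array was scaled to a common median in place of quantile normalisation. In Ts65Dn 29.2% of the calls were lower, and 13.6% under that scaling. Older arrays lay wholly below younger ones for 37.0% of the probes in WT, 28.8% in Ts1Cje and 27.9% in Ts65Dn. The median change over all tested probes was −0.23 in WT, −0.21 in Ts1Cje and −0.09 in Ts65Dn. In WT 4.89% of the probes had a more negative change than Smc1a and 9.46% than Smc3, in Ts1Cje 8.06% and 7.74%, and in Ts65Dn 14.4% and 11.9%.

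Averaged over the 3 genotypes, the age change was −1.01 for Smc1a and −0.99 for Smc3, and each had p = 0.00025 in an exact two-sided permutation test over 8000 regroupings of the arrays between ages within a genotype, the smallest p this design can give. The age changes of Smc1a and Smc3 differed by −0.02 (Smc1a minus Smc3, log2; exact permutation p = 0.83). Within single genotypes the difference was −0.14 in WT (exact permutation p = 0.3), 0.01 in Ts1Cje (p = 1) and 0.06 in Ts65Dn (p = 0.6), where 3 arrays against 3 cannot give a p under 0.1.

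The dim probes gave little measure of an age change, since they lay at background in most groups. Smc1a probe 2 was detected on 2 younger and no older WT arrays, where it fell at least 1.04-fold without a call (adjusted p = 0.13), and on no Ts1Cje array. In Ts65Dn, where both ages had a detected array, it changed by −0.17 ± 0.19 (adjusted p = 0.56). Smc3 probe 2 was detected on no WT array, and in Ts65Dn it changed by −0.21 ± 0.26 (adjusted p = 0.61). In Ts1Cje it was detected on 1 younger and no older array. The fit called it lower there (adjusted p = 0.043), but its younger mean did not exceed the lowest detected signals of the older arrays, so no size is given.

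Whether the trisomies changed the level of cohesin core genes was asked by comparing each model with WT at each age. Ts1Cje differed from WT by −0.08 (95% interval −0.66 to 0.51) for Smc1a and 0.14 (−0.30 to 0.58) for Smc3 at 16-17 dpp. The same differences were −0.09 (−0.67 to 0.49) and −0.02 (−0.46 to 0.42) at 19-20 dpp. The groups overlapped in all 4 cases, no value passed the test, and no probe of the array was called at either age by limma (427 and 634 had an unadjusted p under 0.05).

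At 19-20 dpp all Ts65Dn arrays lay above all WT arrays for both genes, and the difference passed the test for Smc3. Smc3 was 1.69-fold higher in Ts65Dn, a log2 difference of 0.76 ± 0.21 (adjusted p = 0.049), close to the threshold of 0.05. Smc1a was 1.56-fold higher, a log2 difference of 0.64 ± 0.27 (95% interval 0.06 to 1.23). This did not pass the test (adjusted p = 0.13), nor with the header run as a block (adjusted p = 0.090). The Smc1a difference did pass with array weights (0.66, adjusted p = 0.0011) and with the replicate number as a block. The Ts65Dn array lay above the WT array of its header run in 3 of 3 runs, by 0.45 to 1.06 for Smc3 and by 0.28 to 1.07 for Smc1a. Of all tested probes 1.8% were called higher in this comparison and 3.02% lower, and 25.3% had all Ts65Dn arrays above all WT arrays. Of the calls 62.6% were lower, and 51.9% under scaling to a common median. The median difference over all probes was 0.11, or 0.26 under that scaling, where Smc3 stood at 0.98 (adjusted p = 0.068). The call for Smc3 was lost without any 1 of the 3 WT arrays (adjusted p = 0.22, 0.067 and 0.090 without replicates 1, 2 and 3) and without Ts65Dn replicate 2 or 3 (adjusted p = 0.21 and 0.17), while the difference stayed between 0.68 and 0.85.

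The older Ts65Dn arrays also differed from the older Ts1Cje arrays, a comparison that shares the Ts65Dn arrays with the one above. Smc3 was 1.72-fold higher in Ts65Dn, a difference of 0.78 ± 0.21 (adjusted p = 0.031), against 7.31% of the probes called higher. Smc1a was higher by 0.73 ± 0.27 (95% interval 0.15 to 1.32). This did not pass the test (adjusted p = 0.085), nor with the header run as a block (adjusted p = 0.057). The Smc1a difference did pass with array weights (0.43, adjusted p = 0.025) and with the replicate number as a block. Within the header runs the difference was 0.60 to 1.01 for Smc3 and 0.41 to 1.37 for Smc1a, above 0 in 3 of 3 runs. All older Ts65Dn arrays lay above all older Ts1Cje arrays for both genes, as they did for 20.0% of the probes. Of the calls 37.7% were lower, and 21.4% under scaling to a common median, with a median difference over all probes of 0.09 and 0.26. Without Ts1Cje replicate 1 the difference was 0.57 for Smc3 (adjusted p = 0.14) and 0.30 for Smc1a (adjusted p = 0.36). The Smc3 call was also lost without Ts65Dn replicate 2 or 3 (adjusted p = 0.13 and 0.11). It was lost as well with only the compared groups fitted (0.78, adjusted p = 0.16).

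At 16-17 dpp the difference between Ts65Dn and WT was 0.05 for Smc1a (95% interval −0.54 to 0.63) and 0.36 ± 0.21 for Smc3 (−0.09 to 0.80, adjusted p = 0.74). All younger Ts65Dn arrays lay above all younger WT arrays for Smc3, as they did for 10.6% of the probes, and 0.0187% were called. Against Ts1Cje the differences were 0.12 for Smc1a and 0.21 for Smc3, neither called. For each tested dim probe 5 of the 6 comparisons between genotypes had a group with no detected array, so their differences are not given. None was called.

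The test of whether the age change itself differed between genotypes did not pass for either gene. The age change in Ts65Dn minus that in WT was 0.60 ± 0.39 for Smc1a (95% interval −0.23 to 1.42, adjusted p = 0.50) and 0.40 ± 0.29 for Smc3 (−0.22 to 1.03, adjusted p = 0.55). For Ts1Cje it was −0.01 ± 0.39 and −0.16 ± 0.29. No probe of the array was called in either interaction by limma, with 3082 and 604 at an unadjusted p under 0.05 for Ts65Dn and Ts1Cje. A smaller fall in Ts65Dn is therefore not shown for Smc1a or Smc3 by the main fit. With array weights the Smc1a interaction with Ts65Dn did pass (0.73, limma adjusted p = 0.013), and 5227 probes were then called. That of Smc3 did not pass under other settings (lowest adjusted p = 0.11).

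**Figure D3:**
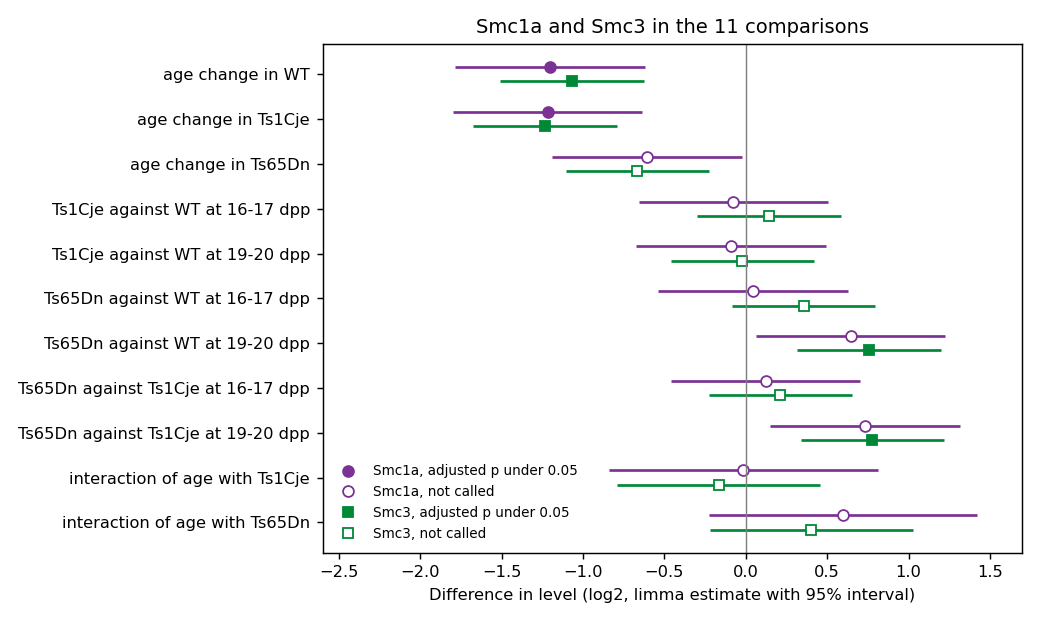
Log2 difference of Smc1a and Smc3 (probe 1) in the 11 comparisons, as limma estimates with 95% intervals; filled symbols passed an adjusted p of 0.05. Both genes are filled for age in WT and Ts1Cje, and Smc3 alone at 19-20 dpp in the comparisons of Ts65Dn with WT (0.76) and with Ts1Cje (0.78).

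Of the 9 cohesin subunit genes, 4 had a tested probe: Smc1a, Smc3 and the STAG genes Stag1 and Stag2, which encode the subunits that bind the kleisin and contact CTCF. Smc1b, Rec8, Rad21, Rad21l and Stag3 were not analysed here, so the levels describe no whole ring, mitotic or meiotic. With age 3 of the 4 fell in WT, 4 in Ts1Cje and 1 in Ts65Dn, with medians of −0.91, −0.98 and −0.64 (−0.77 in WT with Stag2 at its bound). Over all tested probes 28.2%, 27.4% and 2.54% were called lower, with medians of −0.23, −0.21 and −0.09. Stag1 changed by −0.46 ± 0.19 in WT (adjusted p = 0.056), fell by 0.74 in Ts1Cje (adjusted p = 0.0064) and changed by −0.50 in Ts65Dn (adjusted p = 0.096). Stag2, X-linked like Smc1a, fell at least 1.18-fold in WT (adjusted p = 0.030), since it was not detected on the older WT arrays. It fell by 0.69 ± 0.26 in Ts1Cje (adjusted p = 0.042) and was the subunit called in Ts65Dn, by −0.94 ± 0.26 (adjusted p = 0.043). Stag2 was detected on 1 of the 3 older Ts1Cje arrays and 2 of the 3 older Ts65Dn arrays. These 2 sizes therefore rest on older levels near background (means 6.28 and 6.34, log2). At 19-20 dpp Ts65Dn minus WT was 0.33 for Stag1, not called, and no difference is given for Stag2, which was at background on the older WT arrays.

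The genes that load, release or protect cohesin did not move as one. Of 16 listed, 8 were on the array by name and 6 were tested. Pds5b, which regulates release and acetylation of the ring, fell, with a log2 change of −0.52 ± 0.15 in WT (adjusted p = 0.012) and −0.66 ± 0.15 in Ts1Cje (adjusted p = 0.0029), with −0.02 in Ts65Dn. Its paralogue Pds5a fell, with a log2 change of −0.67 ± 0.21 in Ts1Cje (adjusted p = 0.017), with −0.49 in WT (adjusted p = 0.064) and 0.06 in Ts65Dn. Sgo1, the shugoshin that shields centromeric cohesin from cleavage, fell, with a log2 change of −0.75 ± 0.27 in WT and −0.90 ± 0.27 in Ts1Cje (adjusted p = 0.034 and 0.014), with −0.69 in Ts65Dn (adjusted p = 0.11).
The brighter probe of Nipbl, the cohesin loader, rose by 0.56 ± 0.19 in WT (adjusted p = 0.026) and 0.64 ± 0.19 in Ts1Cje (adjusted p = 0.014), against the direction of Smc1a and Smc3. The other tested Nipbl probe gave −0.49 and −0.08 in WT and Ts1Cje (adjusted p = 0.22 and 0.85), so the direction of Nipbl rests on 1 probe. Mau2, the partner of Nipbl, and Wapl, which opens the ring, changed by −0.07 and −0.15 in WT and by 0.01 and −0.02 in Ts1Cje, with no call in any genotype. In Ts65Dn limma called 0 of the 6 with age (2 at an unadjusted p under 0.05). Of all tested probes 46.7% were called with age in WT, 45.3% in Ts1Cje and 8.71% in Ts65Dn. A list of 6 genes is too short to tell 0 calls from the Ts65Dn share. At 19-20 dpp Pds5b was higher in Ts65Dn than in Ts1Cje by 0.60 ± 0.15 (adjusted p = 0.024). It was the 1 call of this list there, beside 7.31% of all tested probes called higher. No gene of the list was called against WT (Pds5b 0.49, adjusted p = 0.063).

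**Figure D4:**
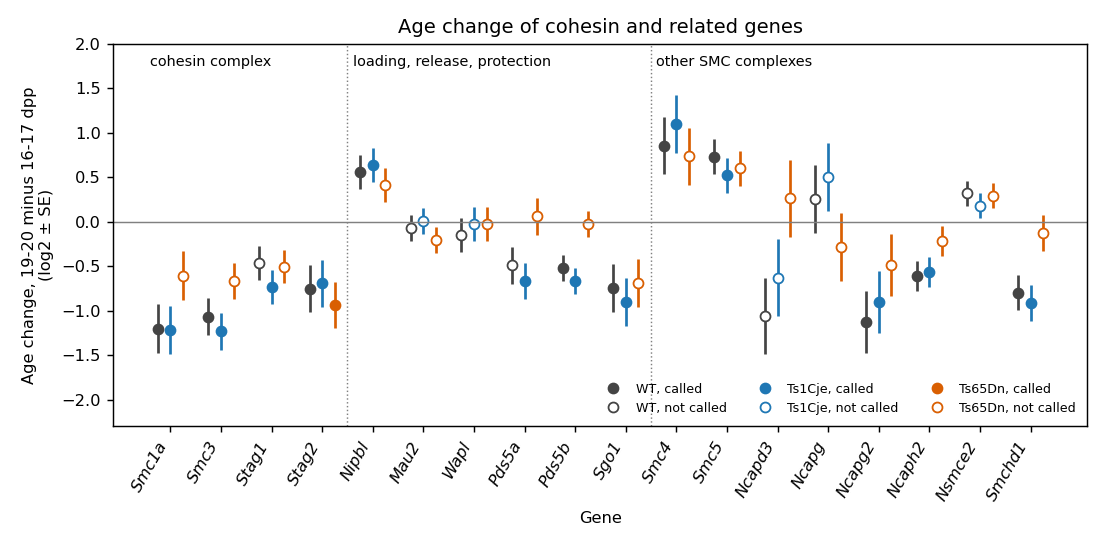
Age change (log2, 19-20 minus 16-17 dpp, ± SE from limma) of the tested cohesin subunits, cohesin regulators and other SMC complex genes in the 3 genotypes, each gene by its brightest tested probe; filled points passed an adjusted p of 0.05. The point for Stag2 in WT is set against older arrays at background; all 4 cohesin subunits lie below 0 in each genotype, while Nipbl, Smc4 and Smc5 lie above it.

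The other SMC complexes, condensin, which compacts chromosomes, and SMC5/6, which acts in repair, moved both ways. Of 8 tested genes of 15 listed, 5 were called in WT and in Ts1Cje and 0 in Ts65Dn by limma (2 at an unadjusted p under 0.05), with medians of −0.18, −0.19 and 0.07. Over all tested probes 46.7%, 45.3% and 8.71% were called in either direction, with medians of −0.23, −0.21 and −0.09. Smc4, an SMC subunit of condensin, rose by 0.86 ± 0.32 in WT and 1.10 ± 0.32 in Ts1Cje. Smc5, of the SMC5/6 complex, rose by 0.73 ± 0.20 and 0.53 ± 0.20. The condensin II subunit Ncapg2 fell, with a log2 change of −1.13 ± 0.35 in WT and −0.90 ± 0.35 in Ts1Cje. Smchd1, an SMC-like protein of the inactive X chromosome in females, fell, with a log2 change of −0.80 ± 0.20 and −0.91 ± 0.20, and was higher in Ts65Dn than in Ts1Cje at 19-20 dpp by 0.75 ± 0.20 (adjusted p = 0.031). Among partners of the meiotic axis, the single tested synaptonemal complex gene, Syce2 of the central element, fell at least 1.46-fold in WT and at least 1.79-fold in Ts1Cje, where it was not detected on the older arrays. Mei1, needed for meiotic double-strand breaks and the single tested recombination gene, fell, with a log2 change of −0.82 ± 0.28 in WT and −1.59 ± 0.28 in Ts1Cje, with −0.34 in Ts65Dn.

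Smc1a was set beside the genes of its own chromosome, and Smc3 beside those of chromosome 19. Of 168 tested X-linked genes, Smc1a among them, 113 fell and 3 rose with age in WT, 104 fell and 2 rose in Ts1Cje, and 7 fell in Ts65Dn, with medians of −0.98, −0.99 and −0.59. The genes that fell were 67.3%, 61.9% and 4.17% of them, beside the 28.2%, 27.4% and 2.54% of all tested probes. In WT 21 of the 167 other X-linked genes had a more negative age change than Smc1a, in Ts1Cje 52 and in Ts65Dn 80. The Smc1a change in WT was beyond the lower quartile of these genes (−1.12), and in the other genotypes it lay between the quartiles (−1.30 to −0.50 in Ts1Cje and −0.79 to −0.36 in Ts65Dn). At 19-20 dpp 12 of the 168 X-linked genes were called higher and 0 lower in Ts65Dn than in WT. Of all tested probes 1.8% were called higher and 3.02% lower. The X-linked median was 0.56, close to the 0.64 of Smc1a, beside 0.11 over all tested probes.

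Of 191 tested genes of chromosome 19, Smc3 among them, 65 fell and 29 rose with age in WT, 61 fell and 27 rose in Ts1Cje, and 7 fell and 4 rose in Ts65Dn, with medians of −0.35, −0.32 and −0.22. The genes that fell were 34.0%, 31.9% and 3.66% of them, near the 28.2%, 27.4% and 2.54% of all tested probes. A more negative age change than that of Smc3 was found for 21 of the 190 other genes in WT, 16 in Ts1Cje and 36 in Ts65Dn. In Ts65Dn against WT at 19-20 dpp, 14 of the 190 had a larger positive difference than Smc3, and the median of the 191 was 0.19. Smc3 lay below the lower quartile of its chromosome with age (−0.79, −0.75 and −0.55), with changes of −1.07, −1.23 and −0.67 beside X-linked medians of −0.98, −0.99 and −0.59.

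**Figure D5:**
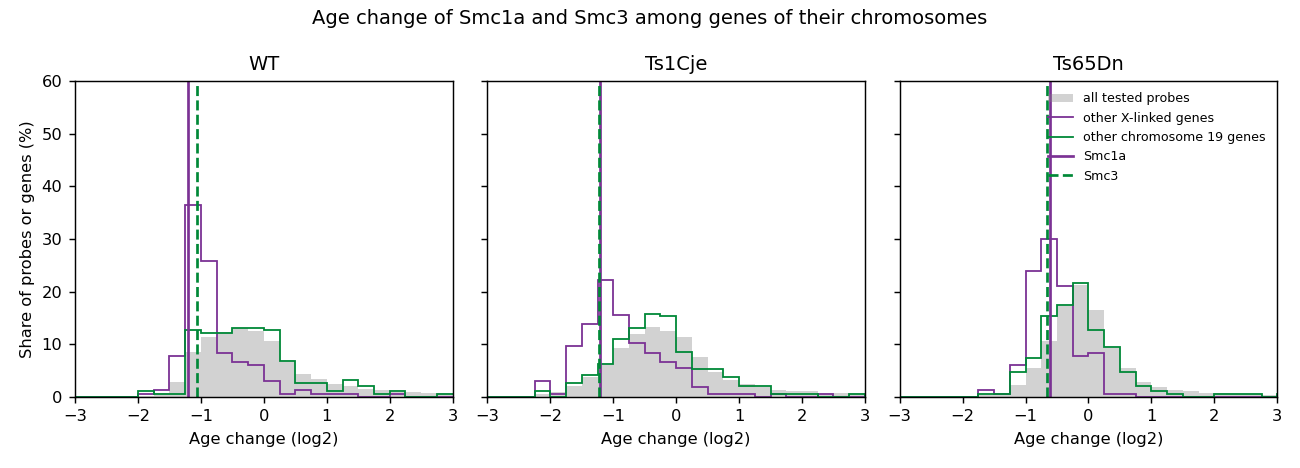
Share (%) of probes or genes by age change (log2) in each genotype, for all tested probes (grey), the 167 other X-linked genes and the 190 other chromosome 19 genes, with vertical lines for Smc1a and Smc3; the axis shows −3 to 3. In WT the X-linked genes centre near −0.97 and those of chromosome 19 near −0.35, with Smc1a at −1.20 and Smc3 at −1.07.

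Smc1a and Smc3 tracked each other across the arrays. Their log2 levels had a Pearson r of 0.94 over the 18 arrays, and of 0.76 after the group means were taken away. Likeness of this size was widespread: 12.8% of the probes had an r of 0.9 or more with Smc1a and 9.52% with Smc3, and 5.35% of the probes were closer to Smc1a than Smc3 was. The 10 named genes closest to Smc1a were Taldo1 (r = 0.99), Ndst1, Snx2, Zfp777, Ddx54, Rhox13, Cobll1, Hspd1, Naa10 and Zfx, of which Rhox13, Naa10 and Zfx are X-linked. The 10 closest to Smc3 were Otud5 (r = 0.99), Foxj3, Rbmy, Tmem131l, Tfdp2, Septin11, Rfwd3, Ints5, Mdh2 and Ptbp3. Ints5 lies on chromosome 19 with Smc3, Otud5 on the X and Rbmy on the Y chromosome. No gene was on both lists, and 26 probes, named or not, were as close to Smc1a as the tenth of its genes, 21 in the case of Smc3. The arrays share genotype, age and normalisation, so these values describe the 18 arrays and carry no test.

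Levels of cell type markers moved along with Smc1a and Smc3. The summed round spermatid level (log2 of the sum over 8 tested genes) ranged from 11.23 to 13.24 over the younger arrays, from 14.73 to 16.04 over the older WT and Ts1Cje arrays, and from 13.45 to 14.50 over the older Ts65Dn arrays. It had an r of −0.94 with Smc1a and −0.96 with Smc3 over the 18 arrays. The older Ts65Dn arrays thus lay between the other sets of arrays in this sum too, as they did for Smc1a and Smc3 in the opposite direction. Odf2 (group means 11.21 to 14.17, log2) outweighed each other gene in this sum. Spaca1 (9.39 to 10.46) was called with age in no genotype. The summed spermatogonial level (Zbtb16, Foxo1 and Gfra1, 3 tested of 10) had an r of 0.94 with each gene. It ranged from 11.59 to 12.18 over the younger arrays, from 10.22 to 11.17 over the older WT and Ts1Cje arrays, and from 11.40 to 11.78 over the older Ts65Dn arrays. Foxo1 (group means 10.32 to 11.55, log2) outweighed Gfra1 (8.23 to 9.82) and Zbtb16 (6.17 to 8.05) in this sum. With age Zbtb16 and Foxo1 were called lower in WT, all 3 genes in Ts1Cje and none in Ts65Dn. Of all tested probes 28.2%, 27.4% and 2.54% were called lower. Gfra1 changed by −0.06 in WT (limma adjusted p = 0.90). The summed level of the other X-linked genes had an r of 0.98 with Smc1a and 0.94 with Smc3.

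Among the somatic markers, Wt1 and Gata4 of Sertoli cells fell with age in WT (−1.09 ± 0.34 and −1.38 ± 0.37), with −0.73 and −0.79 in Ts1Cje and −1.03 and −0.79 in Ts65Dn, not called. Of 5 Leydig genes 4 fell in Ts65Dn, and of 4 macrophage genes 2 fell there, beside 2.54% of all tested probes called lower. Both peritubular genes fell in Ts1Cje, beside 27.4% of the probes, and the share called lower in WT was 28.2%. The Leydig gene Cyp11a1 was not detected on the older Ts65Dn arrays, where it fell at least 10.8-fold. The peritubular gene Col1a2 was not detected on the older Ts1Cje arrays, where it fell at least 3.44-fold. The summed Sertoli level (Wt1 and Gata4) had an r of 0.91 with Smc1a and 0.90 with Smc3. It ranged from 13.22 to 13.53 in younger and 11.91 to 12.47 in older WT, from 12.68 to 13.73 and 11.60 to 13.01 in Ts1Cje, and from 13.83 to 13.96 and 12.37 to 13.16 in Ts65Dn. Wt1 (group means 12.20 to 13.83, log2) outweighed Gata4 (7.18 to 8.91) in this sum. The Leydig sum (5 tested of 7 listed) had an r of 0.44 with Smc1a and 0.40 with Smc3, and the macrophage sum (4 tested of 8) 0.37 and 0.29. The peritubular sum (Acta2 and Col1a2, 2 tested of 7) had 0.73 and 0.79. The part of these cell types in the levels of Smc1a and Smc3 was not tested.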

How the data were processed

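RNA of 18 samples in 6 groups of 3 was labelled with biotin and read on bead arrays. Per the file headers, the deposited files give an average signal intensity per probe, with the standard error over beads as an intensity, bead counts and a detection p-value against negative controls, and BeadStudio is named in the submitters' processing notes (no version given). The deposited series table holds log2 values, per the values quantile-normalised without background correction, and served as an alternative only.

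Background was corrected by normexp, inferred from the detection p-values (nec in limma, with an offset of 16), before log2 and then quantile normalisation. Control probes (259) were left out after these steps. Probes with a detection p under 0.05 on at least 3 arrays (21337) were fitted with limma in 1 model of 6 group means over 18 arrays, with 11 contrasts, and Benjamini-Hochberg adjustment over all tested probes of a contrast (called at an adjusted p under 0.05). A probe dim on every array of a group has only a bound there, given as "at least" the fold over the lowest detected signal or the dim probe's own, whichever is higher. No block was used. The script was tested on simulated data.

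Gene names came from zero-padded gene numbers or clone names in the probe identifiers, matched to RefSeq (GRCm38.p6): 10778 probes named 8679 genes. A gene outside Smc1a and Smc3 is given by its brightest tested probe. Smc1a and Smc3 are given by all probes named for them. List genes were named where tested, with up to 4 examples for the other SMC complexes, and the 10 genes of highest correlation to each gene. Members and lists were chosen with earlier results of these data known. Proteins and probe sequences were not used here. Fits used limma 3.58.1 in R 4.3.3. Tables, permutation tests and plots used scipy 1.17.1, matplotlib 3.10.9, pandas 2.3.3 and numpy 2.4.6 under python 3.11.15.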

Additional observations from a re-analysis of the deposited data

How the results depend on the processing

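Settings tried were no background correction, an offset of 50, scaling to a common median, all probes kept, probes detected on all arrays, array weights, only the groups compared, the replicate number as a block, each array left out, the authors' series table and, chosen after seeing the data, the header run as a block. Of the values for Smc1a and Smc3, 32 of 279 changed direction or side of the threshold, and 32 of 207 with an array left out. Calls for age in WT held throughout for both bright probes. The cause was not tested for any change below.

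Same-numbered arrays correlated at −0.30 to 0.64 in their deviations from group means (mean 0.24 over 45 pairs). Arrays of different numbers had a mean of −0.12 over 90 pairs. For arrays of the same and of different header runs the means were 0.14 and −0.07. The main fit took neither the numbers nor the runs as pairs. With the replicate block, Smc1a passed in Ts65Dn against WT (0.64, adjusted p = 0.044) and Ts1Cje (0.73, adjusted p = 0.025) at 19-20 dpp. The age change of Smc3 in Ts65Dn also passed with it (−0.67, adjusted p = 0.018), without background correction (−0.57), with only the compared groups fitted (−0.67), with the header run as a block (−0.67), with array weights (−0.66) and in the authors' series table (−0.57), and that of Smc1a with the compared groups alone (−0.61) and array weights (−0.54). In the other direction, only the groups compared ended the calls of Smc1a for age in Ts1Cje (−1.22, adjusted p = 0.066) and of Smc3 for Ts65Dn against Ts1Cje (0.78, adjusted p = 0.16). The call of Smc3 for Ts65Dn against WT ended under median scaling (0.98), with all probes kept (0.76) and with probes detected on all arrays (0.76; adjusted p = 0.068, 0.071 and 0.052).

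Array weights made Smc1a pass at 19-20 dpp in Ts65Dn against WT (0.66) and Ts1Cje (0.43) and in the interaction with Ts65Dn (0.73). They turned uncalled values of Smc1a (0.24 for Ts1Cje minus WT at 19-20 dpp, −0.065 for Ts65Dn minus WT at 16-17 dpp, 0.43 for the interaction with Ts1Cje), of Smc3 (−0.050 and 0.11 for Ts1Cje minus WT at 16-17 and 19-20 dpp, 0.16 for that interaction) and of Smc1a probe 2 (0.18 for age in Ts1Cje, where it was at background). Median scaling turned the difference in age change between the genes to 0.011.

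With 1 array left out, Ts1Cje minus WT ranged over −0.18 to 0.017 (Smc1a) and −0.068 to 0.26 (Smc3) at 16-17 dpp and −0.33 to 0.35 and −0.13 to 0.19 at 19-20 dpp, and the interaction with Ts1Cje over −0.25 to 0.42 and −0.28 to 0.047. Ts65Dn minus Ts1Cje at 19-20 dpp ranged over 0.30 to 0.97 and 0.57 to 0.89, Ts65Dn minus WT over −0.057 to 0.14 (Smc1a, 16-17 dpp) and 0.68 to 0.85 (Smc3, 19-20 dpp), the difference in age change between the genes over −0.072 to 0.055, and Smc1a probe 2 with age in Ts1Cje over −0.18 to 0.094. Smc1a passed for Ts65Dn against Ts1Cje without Ts1Cje 19-20 dpp replicate 2 or 3 (adjusted p = 0.038 and 0.043).

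Counts of called probes went from 9964 to between 5331 and 10360 with an array left out for age in WT, from 9676 to 3577 with only the groups compared and 6414 to 10422 with an array left out in Ts1Cje, and from 1859 to 279 with all probes kept and 9432 with array weights in Ts65Dn. At 19-20 dpp they went from 1028 to 383 with all probes kept and 10478 with array weights for Ts65Dn against WT, and from 2504 to 3 with the compared groups fitted alone and 7156 under array weighting against Ts1Cje. These 3 Ts65Dn counts were 5413, 5074 and 5462 with the replicate block, and 10 to 1109, 0 to 2017 and 95 to 3679 with an array left out. The interaction with Ts65Dn went from 0 to 5227 with array weights.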
